A study of Bos taurus with 6 samples.

Results

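The genes FABP7, NES, OLIG1, MBP, BCAS1 and CSPG4, which serve as markers of radial glia and of the oligodendrocyte lineage, were followed across bovine fetal forebrain, liver and rumen. They were taken by name from a table of counts for 14179 gene symbols, and all 6 of 6 were found there and passed the filter on low counts. Poly(A) RNA was sequenced in 2 libraries per tissue, from wild-type male Holstein fetuses of about 90 days with a crown-rump length of 13 to 16 cm. No allele, agent or treatment set the groups apart, so the tissue was the only labelled difference. The labels count 2 male fetuses and do not tie a library to one of them, so a tissue holds at most 2 animals and tissues can share them. The p-values therefore measure library-to-library spread alone, and part or all of it may be technical.

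Radial glia are the stem cells that line the ventricles of the developing brain, and they give rise first to neurons and later to astrocytes and oligodendrocytes. Oligodendrocyte precursors arise from them, migrate, divide and finally wrap axons in myelin. The chosen genes mark successive steps of this path: FABP7 and NES the radial glia, OLIG1 and CSPG4 the precursors, BCAS1 the cells starting to make myelin, and MBP the myelin itself. Several of them are also known from other cells, such as pericytes, smooth muscle, muscle progenitors, peripheral glia and blood cells.

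The libraries held between 10271024 and 18528958 counts. Levels are given as CPM, counts scaled per 1e+06 of the effective library size after TMM scaling, and CPM values are compared here within a gene and not between genes, because transcript lengths were not used. Fold changes and adjusted p come from quasi-likelihood tests in edgeR, with p adjusted by the Benjamini-Hochberg method over 11478 genes. A gene was called where the adjusted p was under 0.05. Each standard error (SE) was derived as the absolute log2 fold change divided by the square root of the F statistic of its test. A level of 3 counts in both libraries of a tissue, taken as the floor, was 0.115 CPM for forebrain, 0.103 for liver and 0.116 for rumen, and covers counting error only. In bulk tissue, fewer cells of a type and less RNA per cell cannot be told apart. The tissue labels matched listed markers of the tissues, which were chosen with earlier results of these data known. The summed level of 7 liver genes (such as ALB and AFP) was 215960 and 182841 CPM in the liver libraries and at most 134 CPM elsewhere. That of 7 rumen wall genes (such as KRT15 and PITX1) was 13819 and 11251 CPM in rumen and at most 20.8 CPM elsewhere. The 10 forebrain patterning genes present summed to 312 and 273 CPM in forebrain, 15.4 and 56.3 CPM in liver, where LHX2 made up most of it, and 13.5 and 12.7 CPM in rumen. The liver libraries differed most from each other: the log2 ratio between libraries of a tissue had an SD over all tested genes of 1.05 in liver, against 0.428 in forebrain and 0.511 in rumen.

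The 6 genes fell into 3 patterns. OLIG1 was read in forebrain alone, FABP7, MBP and BCAS1 were highest in forebrain and lower elsewhere, and NES and CSPG4 were highest in rumen. Against forebrain, rumen had 2 of the 6 higher and 4 lower, where 41.8% of all tested genes were called (20.3% higher and 21.5% lower). Liver against forebrain had 0 higher and 4 lower, where 57.8% were called (30.5% higher and 27.3% lower). Of the 5 genes with counts in rumen or liver, 3 were higher and 2 lower in rumen than in liver, where 43.0% were called (21.2% higher and 21.8% lower). The libraries of rumen and forebrain did not overlap for 6 of the 6 genes, 2 higher and 4 lower in rumen, where 81.2% of tested genes did not overlap (39.7% higher and 41.4% lower). Liver and forebrain did not overlap for 5 of the 6, all lower in liver, where 77.9% did not (40.1% higher and 37.8% lower). Rumen and liver did not overlap for any of the 5 with counts, 3 higher and 2 lower in rumen, where 69.3% did not (34.6% in each direction). The 3 comparisons share libraries and are not independent of each other. Where 1 library is left out, the tissue left with 1 library is assumed to vary like the others. Of the calls among all genes, 52.8% were higher in liver against forebrain and 49.3% in rumen against liver, and these shares became 39.2% and 62.2% with total counts and no scaling factor. Without 1 library the number of higher genes among the 6 in rumen against forebrain was 0 when either Forebrain or either Rumen library was left out. The number lower in liver was 6 without Liver 1, and between 3 and 5 without any of the others. The number lower in rumen than in liver was 1 when either Forebrain library or Rumen 2 was left out, and 0 when Rumen 1 was.

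**Figure D1:**
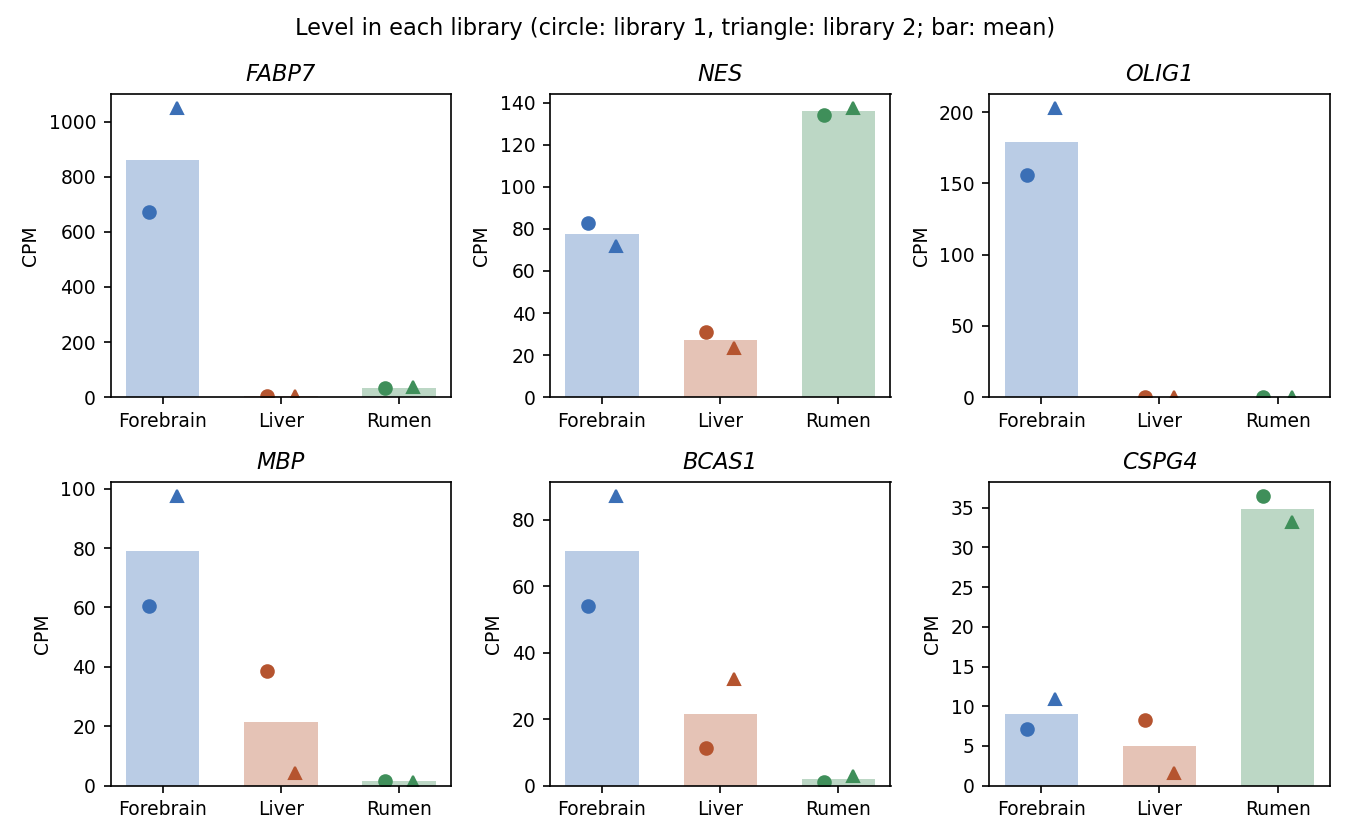
CPM (y axis, linear, from 0, own scale per gene) of each of the 6 genes in the 3 tissues (x axis); circles are library 1, triangles library 2 and bars their mean. FABP7, OLIG1, MBP and BCAS1 are highest in forebrain, NES and CSPG4 in rumen, and the liver libraries lie far apart for MBP, from 38.7 to 4.30 CPM.

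FABP7 encodes the brain-type fatty acid-binding protein, a small carrier of long-chain fatty acids made by radial glia and, in mouse, also by peripheral and enteric glia. It stood at 673 CPM in Forebrain 1 and 1049 CPM in Forebrain 2, at 2.68 and 3.53 CPM in Liver 1 and 2, and at 31.6 and 37.3 CPM in Rumen 1 and 2. The tissues did not overlap, and rumen lay between the others. FABP7 was 25.0-fold lower in rumen than in forebrain (log2 fold change -4.64 ± 0.31 (SE), adjusted p = 0.000125). In liver it was 275-fold lower than in forebrain (log2 fold change -8.10 ± 0.39 (SE), adjusted p = 1.92e-05), and rumen was 11.0-fold above liver (adjusted p = 0.000443). These 3 calls held in every one of the 15 alternatives run. With 36 and 55 counts in the liver libraries, FABP7 was above the floor there. Only 5.92% of tested genes had a larger absolute log2 fold change between liver and forebrain, and 8.65% had one between rumen and forebrain.

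Of the related carriers, FABP3 shared the 3 calls of FABP7 and the other tested carriers did not. FABP3, the heart-type protein, stood at 266 and 314 CPM in the forebrain libraries, at 13.6 and 10.4 CPM in those of liver and at 23.6 and 22.9 CPM in those of rumen, and was called lower in rumen and liver than in forebrain and 1.94-fold higher in rumen than in liver (adjusted p = 0.0192). FABP5, the epidermal-type protein, was called lower in liver, where its libraries stood at 32.6 and 6.29 CPM. Rumen (153 ± 8.53 CPM) against forebrain (177 ± 12.5 CPM) did not pass the test for it (adjusted p = 0.805; SD, n = 2). FABP1, the liver-type protein, stood at 217 ± 40.1 CPM in liver (SD, n = 2) and had no counts in forebrain or rumen, at least 1910-fold and 1890-fold lower by the floor. Of the rest, FABP2 had 3 and 10 counts in the liver libraries, 8 and 6 in those of rumen and none in forebrain, FABP6 and PMP2 had 1 count each in 1 library, and FABP4 and FABP9 had none. Thus of the 4 tested members of the family, 2 were lower in rumen than in forebrain and 3 in liver than in forebrain, where 21.5% and 27.3% of all tested genes were lower.

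NES encodes nestin, a large intermediate filament protein of neural stem cells that is also made by muscle progenitors, growing vessels and pericytes. Its level was 82.9 and 72.0 CPM in the forebrain libraries, 31.2 and 23.2 CPM in those of liver, and 134 and 137 CPM in those of rumen. Again no tissues overlapped, but here rumen was on top and liver lowest. Rumen was 1.75-fold above forebrain (log2 fold change 0.81 ± 0.23 (SE), adjusted p = 0.0295). That call was lost without Forebrain 1 (log2 fold change 0.94, adjusted p = 0.124), Forebrain 2 (0.74, adjusted p = 0.196), Rumen 1 (0.82, adjusted p = 0.144) or Rumen 2 (0.82, adjusted p = 0.145), and with total counts and no scaling factor (0.65, adjusted p = 0.0629), out of a range of adjusted p from 0.00011 to 0.196 over 15 alternatives. Liver was 2.85-fold below forebrain (adjusted p = 0.00196) and rumen 5.00-fold above liver (adjusted p = 0.00054), and both calls held in all 15 alternatives.

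Among the other intermediate filaments, which form a family with nestin, VIM (vimentin, a filament of mesenchyme and of radial glia) had the same order of tissues, with 1281 ± 4.21 CPM in rumen, 412 ± 5.08 in forebrain and 156 ± 44.1 in liver (SD, n = 2). It was 3.11-fold higher in rumen than in forebrain (adjusted p = 0.00274). DES (desmin, a muscle filament) stood at 575 ± 66.4 CPM in rumen, 0.803 ± 0.0136 in forebrain and 5.67 ± 4.83 in liver, and PRPH (peripherin, of peripheral neurons) at 181 ± 22.9, 14.4 ± 0.515 and 0.230 ± 0.220 CPM, in the same order (SD, n = 2). SYNC, a partner of desmin, was 2.12-fold higher in rumen than in forebrain (adjusted p = 0.0458). The filaments of central neurons and astrocytes ran the other way. INA, NEFL and NEFM were 22.3-fold, 30.3-fold and 14.5-fold lower in rumen than in forebrain, GFAP (the astrocyte filament) was 89.7-fold lower, and BFSP1 (a lens filament) was 6.59-fold lower. In all, 5 of 12 tested filament genes, NES included, were higher in rumen than in forebrain and 5 were lower, where 20.3% and 21.5% of all tested genes were, with a median log2 fold change of -0.27 beside -0.01 over all tested genes. The number higher was 3 without either Forebrain or either Rumen library, and 3 with total counts and no scaling factor. SYNM and BFSP2 were not called in any comparison.

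OLIG1 encodes a basic helix-loop-helix transcription factor of oligodendrocyte precursors and their neural progenitors. It had 1917 counts in Forebrain 1 and 2813 in Forebrain 2, which is 156 and 203 CPM, and 0 counts in each liver and each rumen library. By the floor of 3 counts in both libraries, its pooled level was at least 1560-fold lower in rumen (adjusted p = 0.000253) and at least 1748-fold lower in liver (adjusted p = 0.000118). Both calls held in all 15 alternatives. Rumen and liver could not be compared for it. Of the other basic helix-loop-helix genes in the list, the neuronal factor NEUROD6 was likewise read in forebrain alone, at 13.5 ± 0.436 CPM (SD, n = 2). NEUROD1 stood at 3.50 and 7.58 CPM in forebrain, 0 and 0.385 CPM in liver and 1.91 and 0.858 CPM in rumen, and was called lower in liver only, the difference between liver and rumen not passing the test (adjusted p = 0.132). NEUROG2 had 1 count in Forebrain 1, 3 in Forebrain 2 and none elsewhere. The neighbour OLIG2 and 6 further listed factors were not analysed here.

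CSPG4 encodes NG2, a chondroitin sulphate proteoglycan of the cell surface on oligodendrocyte precursors and, outside the brain, on pericytes and smooth muscle. The forebrain libraries had 7.16 and 10.9 CPM, the liver libraries 8.26 and 1.61 CPM, and the rumen libraries 36.4 and 33.2 CPM. Rumen lay above every other library, whereas Liver 1 fell between the forebrain libraries and Liver 2 below both. CSPG4 was 3.84-fold higher in rumen than in forebrain (log2 fold change 1.94 ± 0.60 (SE), adjusted p = 0.0377). The adjusted p became 0.213 without Forebrain 1, 0.129 without Forebrain 2, 0.172 without Rumen 1, 0.143 without Rumen 2 and 0.0726 with edgeR's older quasi-likelihood method, within a range from 5.32e-06 to 0.213 over 15 alternatives, and the fold change stayed positive in all. Against liver it was 7.21-fold higher in rumen (log2 fold change 2.85 ± 0.63 (SE), adjusted p = 0.0115), a call lost without Rumen 1 (adjusted p = 0.0761) or Rumen 2 (adjusted p = 0.0660). That log2 fold change was 4.43 without Liver 1 and 2.08 without Liver 2. Liver and forebrain did not pass the test (log2 fold change -0.91 ± 0.66 (SE), adjusted p = 0.275). The log2 fold change there was -2.50 without Liver 1 and -0.14 without Liver 2.

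**Figure D2:**
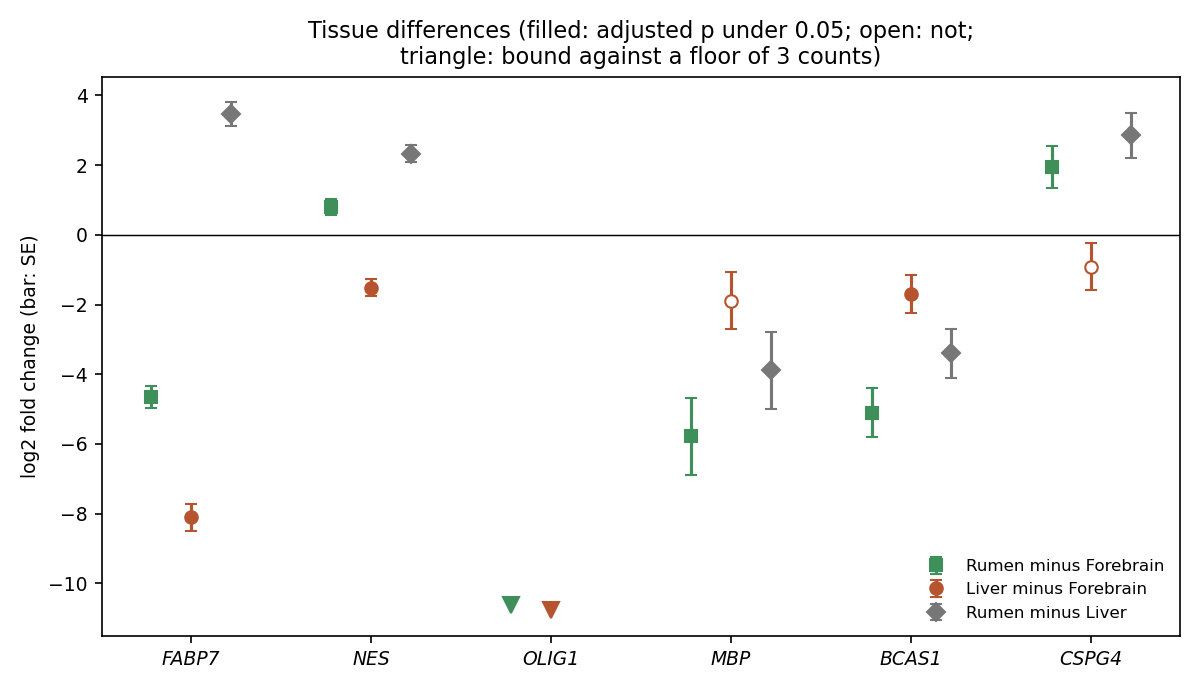
Log2 fold change (y axis) of each gene (x axis) in the 3 tissue comparisons, with bars of 1 SE; filled symbols passed an adjusted p of 0.05, open ones did not, and triangles are bounds against the floor of 3 counts. NES and CSPG4 lie above 0 in rumen minus forebrain, at 0.81 and 1.94, while the other 4 lie at or below -4.64.

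The proteoglycans of brain matrix and their relatives split in the same comparison. NCAN (neurocan) was 48.5-fold lower in rumen than in forebrain, CSPG5 (neuroglycan C) 41.5-fold, BCAN (brevican) 599-fold and PTPRZ1 (a receptor phosphatase of radial glia and precursors) 5.21-fold, with levels in forebrain of 792 ± 123, 377 ± 35.1, 307 ± 16.1 and 535 ± 19.1 CPM (SD, n = 2). VCAN (versican, a matrix proteoglycan of mesenchyme) stood at 96.3 and 187 CPM in rumen against 17.0 and 9.17 CPM in forebrain and was 10.9-fold higher (adjusted p = 0.0065). With CSPG4 this made 2 of 7 tested genes higher and 4 lower, beside 20.3% and 21.5% of all tested genes. The number higher was 1 without Forebrain 1 or Rumen 1, 0 without Forebrain 2 or Rumen 2, and 1 with the older quasi-likelihood method. SMC3, a cohesin subunit also listed under a proteoglycan name, was not called between rumen and forebrain (adjusted p = 0.769), and ACAN (aggrecan) was too low to test. The molecules that NG2 is known to bind, and the PDGF system that drives precursors, were also counted. COL6A1, a chain of collagen VI, stood at 907 ± 104 CPM in rumen against 2.68 ± 2.53 CPM in forebrain (SD, n = 2), COL6A2, another chain, was 57.3-fold higher in rumen, and FGFR1 was 3.57-fold higher in rumen. PDGFRA, the receptor shared by oligodendrocyte precursors and mesenchyme, stood at 91.2 and 92.2 CPM in forebrain, 6.33 and 4.17 CPM in liver, and 127 and 155 CPM in rumen, and rumen against forebrain did not pass the test (adjusted p = 0.0801). Of 10 tested genes of this list, 5 were higher in rumen than in forebrain (3 without Forebrain 2; 20.3% of all tested genes) and 1 was lower (0 without either Forebrain or either Rumen library).

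BCAS1 encodes a protein of oligodendrocytes at the onset of myelination, described in mouse and human. Levels were 54.0 and 87.0 CPM in forebrain, 11.3 and 32.0 CPM in liver, and 1.15 and 2.97 CPM in rumen. Forebrain was highest, liver intermediate and rumen lowest, with no overlap. BCAS1 was 34.3-fold lower in rumen than in forebrain (log2 fold change -5.10 ± 0.70 (SE), adjusted p = 0.00166), and this held in all 15 alternatives, at a log2 fold change of -5.90 without Rumen 2. In liver it was 3.24-fold lower than in forebrain (log2 fold change -1.70 ± 0.54 (SE), adjusted p = 0.0318). That call was lost without Forebrain 1 (adjusted p = 0.0654), Forebrain 2 (-1.31, adjusted p = 0.190), Rumen 1 (-1.70, adjusted p = 0.0556) or Rumen 2 (-1.70, adjusted p = 0.0561), with the older quasi-likelihood method (adjusted p = 0.0518) and with forebrain and liver alone in the fit (adjusted p = 0.0504), within a range from 1.72e-05 to 0.190 over 15 alternatives. The log2 fold change of this comparison was -2.65 without Liver 2 and -1.15 without Liver 1. Rumen was 10.6-fold below liver (log2 fold change -3.40, adjusted p = 0.00851). The call was lost without Rumen 1 (-2.87, adjusted p = 0.0717), and the log2 fold change was -4.21 without Rumen 2 and -2.46 without Liver 2.

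MBP encodes myelin basic protein, which compacts the myelin sheath. In mouse and human the same locus also gives golli transcripts, found in neurons and blood cells, and a count per gene does not separate them. MBP stood at 60.3 and 97.4 CPM in the forebrain libraries, at 38.7 CPM in Liver 1 but 4.30 CPM in Liver 2, and at 1.53 and 1.33 CPM in rumen. Every forebrain library lay above every liver library and rumen lay lowest, with a wide gap inside liver. Rumen was 54.9-fold below forebrain (log2 fold change -5.78 ± 1.10 (SE), adjusted p = 0.00647), a call lost without Rumen 1 (adjusted p = 0.0621) or Rumen 2 (adjusted p = 0.0660). Liver against forebrain did not pass the test (log2 fold change -1.89 ± 0.81 (SE), adjusted p = 0.0856). The log2 fold change there was -4.20 without Liver 1 and -1.03 without Liver 2, sizes far apart. Such a fit has no liver spread of its own, so it does not test the gap inside liver. Rumen was 14.8-fold below liver (log2 fold change -3.89 ± 1.11 (SE), adjusted p = 0.0294). This last call was lost without Forebrain 1 (adjusted p = 0.0593), Forebrain 2 (adjusted p = 0.0599), Rumen 1 (adjusted p = 0.133) or Rumen 2 (adjusted p = 0.148), with limma-voom (adjusted p = 0.194) and with liver and rumen alone in the fit (adjusted p = 0.0579). The log2 fold change was -1.58 without Liver 1 and -4.75 without Liver 2.

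The spread between libraries of a tissue differed from gene to gene. In liver, MBP had a log2 ratio of Liver 1 over Liver 2 of 3.03, and only 1.27% of tested genes had a larger absolute ratio. CSPG4 followed with 2.06 (6.36% of genes larger), while BCAS1 was lower in Liver 1, at -1.46 (15.4% larger). NES and FABP7 differed little in liver, with log2 ratios of 0.42 and -0.34. Within forebrain, 5 of the 6 genes were higher in Forebrain 2, and the share of all tested genes higher there was not counted. The share of tested genes with a larger absolute ratio ran from 8.96% for MBP to 51.7% for NES. The log2 ratios of Forebrain 1 over Forebrain 2 were -0.69 for MBP, -0.68 for BCAS1, -0.64 for FABP7, -0.57 for CSPG4 and -0.38 for OLIG1, against 0.20 for NES. In rumen, BCAS1 had the widest ratio, -1.07, from 15 and 38 counts, and the other 4 genes with counts lay between -0.24 and 0.15.

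**Figure D3:**
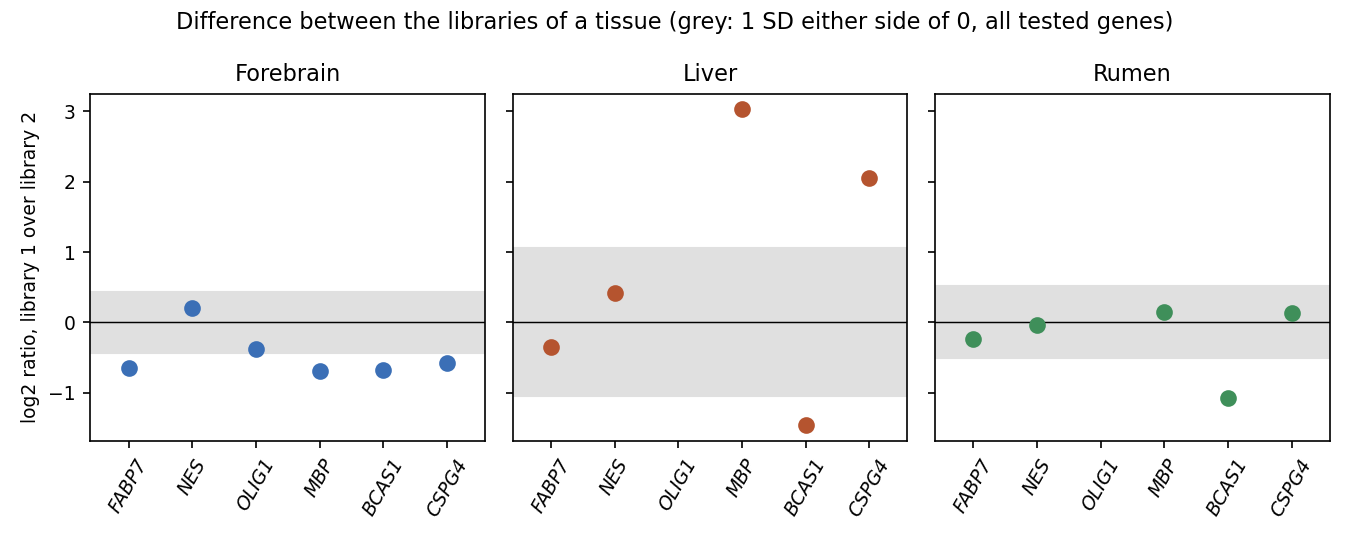
Log2 ratio of library 1 over library 2 (y axis) for each gene (x axis) within each tissue; the grey band is 1 SD on either side of 0 over all tested genes of that tissue, and genes without counts are left blank. In liver, MBP at 3.03 and CSPG4 at 2.06 lie above the band and BCAS1 at -1.46 below it.

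Beside the gap of MBP inside liver, the summed level of 12 blood and immune genes was 1309 CPM in Liver 1 and 915 CPM in Liver 2, against 139 to 245 CPM in the other tissues. Of these, 10 were higher and 2 lower in Liver 1 than in Liver 2, where 49.1% of all tested genes were higher in Liver 1. TAL1, a factor of blood progenitors, had 516 and 131 CPM and made up most of the gap between the liver sums. GATA1, a factor of red cell precursors, had 302 and 232 CPM, and CD34, a surface protein of progenitors and vessels, 183 and 266 CPM. In forebrain GFI1B had no counts, and in rumen GATA1 and GFI1B had none. Of the 12, 10 were higher and 1 lower in liver than in forebrain, beside 30.5% and 27.3% of all tested genes. Genes of mural cells and of hepatic stellate cells, the pericytes of the liver, also had higher sums in Liver 1. The 6 pericyte genes other than CSPG4 summed to 224 and 149 CPM, and 10 stellate cell genes to 550 and 466 CPM. Of these, 5 of 6 and 8 of 10 were higher in Liver 1, as were 8 of 11 smooth muscle and 8 of 11 endothelial genes. PDGFRB (a receptor of pericytes), in both the pericyte and stellate lists, had 180 and 89.8 CPM. Without it, neither of those sums was higher in Liver 1. By contrast, ANPEP (a peptidase of pericytes) had 16.0 and 42.2 CPM and RELN (reelin, made by stellate cells) 116 and 130 CPM. LHX2, a factor of stellate cells, was also lower in Liver 1, with 202 and 840 counts. Of the 10 stellate cell genes, 7 were higher and 1 lower in liver than in forebrain, against those same shares of all tested genes, with 4 higher when either Forebrain library was left out. Neuronal genes were at the low end in liver, with 83.2 and 64.2 CPM over 12 genes against 12591 and 12000 CPM in forebrain and 446 and 476 CPM in rumen. All 12 were lower in liver than in forebrain and 11 lower in rumen than in forebrain, against 27.3% and 21.5% of all tested genes. TUBB3, DCX, ELAVL4, SLC17A6 and GAD1 had no counts in liver, and of the 12 genes 5 were higher and 2 lower in Liver 1. STMN2, a microtubule regulator of neurons, had 27.2 and 2.89 CPM, SNAP25, a protein of synaptic release, 5.88 and 12.5 CPM, and MAP2, a microtubule protein of dendrites, 49.4 and 48.2 CPM. The part of these cells in the liver values of MBP and CSPG4 was not tested.

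Other genes of the glial path set the frame for the 6. Of 22 tested genes of radial glia and astrocytes, FABP7 and NES included, 4 were higher and 11 lower in rumen than in forebrain, beside 20.3% and 21.5% of all tested genes, with a median log2 fold change of -2.57. The number higher was 2 without either Forebrain or either Rumen library, and 2 with total counts and no scaling factor. Against forebrain, liver had 2 higher and 16 lower (30.5% and 27.3% of all tested genes), with a median of -5.27 beside 0.14 over all tested genes. The higher genes were ALDH1L1 and NFIA, the latter close to the threshold, and their number was 1 when any Forebrain or Rumen library was left out and in 6 other settings. ALDH1L1 had 103 and 442 CPM in the liver libraries against 2.76 and 1.95 CPM in those of forebrain, and was 116-fold higher (adjusted p = 0.000313). AQP4, the water channel of astrocyte end feet, had 325 ± 14.7 CPM in forebrain, no counts in liver and 0.538 ± 0.430 CPM in rumen, and SLC1A3, the glial glutamate transporter, had 312 ± 116, 1.44 ± 0.776 and 12.9 ± 0.968 CPM (SD, n = 2). SOX2, a factor of neural stem cells and also of foregut epithelium, had 74.0 and 90.1 CPM in forebrain and 94.4 and 89.7 CPM in rumen, which overlapped (adjusted p = 0.617), and no counts in liver. In rumen, HES5 (a Notch target in neural progenitors) was 25.2-fold below forebrain (adjusted p = 8.86e-05), and S100B, a calcium-binding protein of glia, 19.1-fold lower (adjusted p = 0.000212). Higher in rumen beside NES were VIM, HES1 (a Notch target active in many progenitors) and NFIA (a factor of glial differentiation, at 4.06 ± 0.220 against 1.17 ± 0.280 CPM; SD, n = 2). CLU and GLUL, also abundant in this list, were not called between rumen and forebrain.

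**Figure D4:**
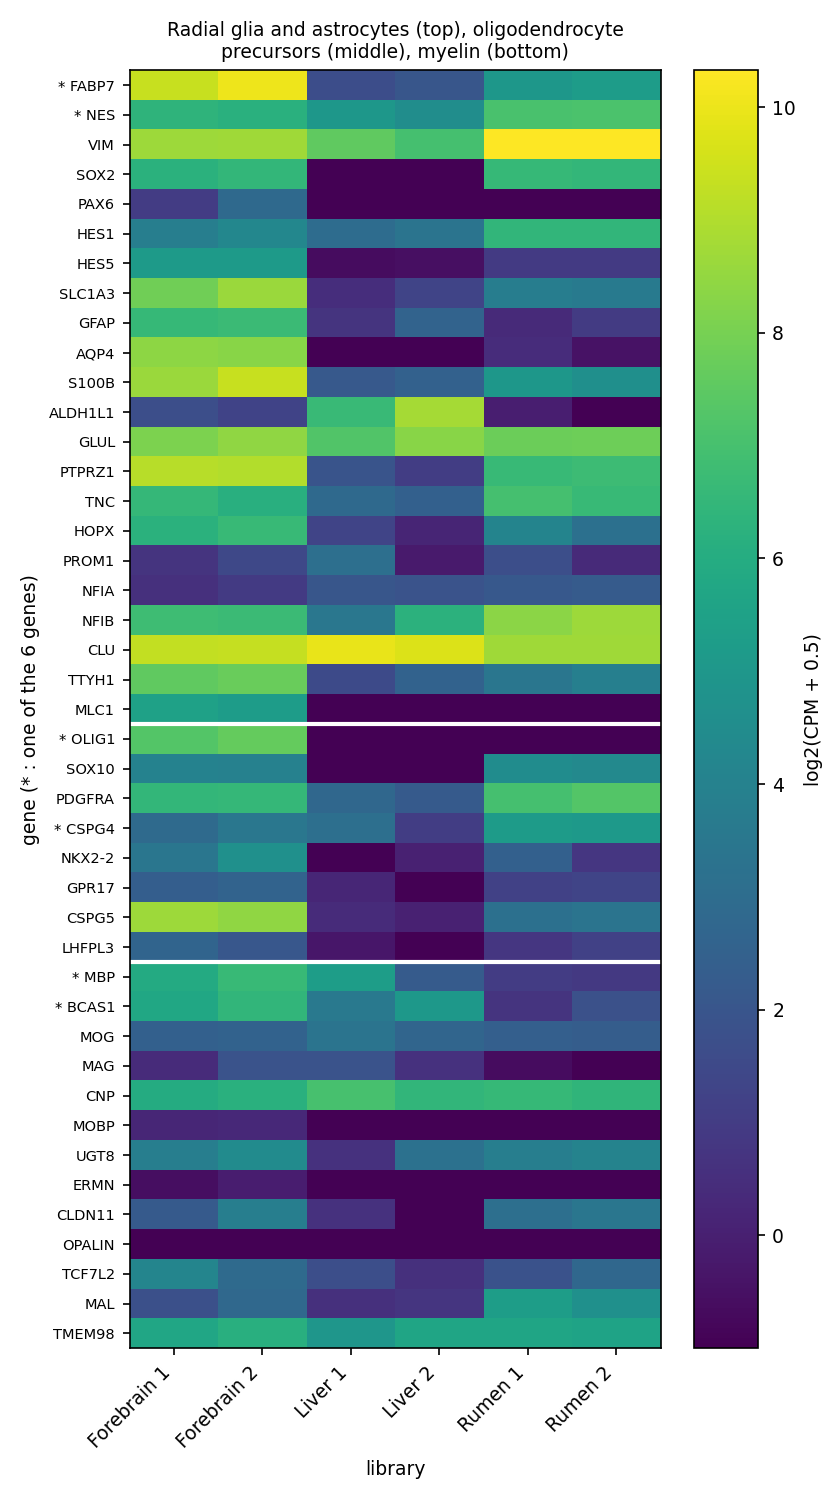
Level of each listed gene (rows, in 3 blocks for radial glia and astrocytes, oligodendrocyte precursors, and myelin) in each library (columns), as log2(CPM + 0.5) on a colour scale; stars mark the 6 genes. OLIG1 and AQP4 are bright in forebrain alone, while SOX2, SOX10 and PDGFRA are bright in both forebrain and rumen and dark in liver.

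Precursor genes did not share 1 pattern. SOX10, a factor of oligodendrocyte precursors and of peripheral and enteric glia, stood at 15.5 and 15.3 CPM in forebrain and 22.6 and 19.7 CPM in rumen (adjusted p = 0.319), and had no counts in liver. NKX2-2, a factor of ventral progenitors and precursors, stood at 10.3 and 24.9 CPM in forebrain against 4.97 and 1.25 CPM in rumen (adjusted p = 0.0292). Of 8 tested precursor genes, OLIG1 and CSPG4 included, 1 was higher and 3 lower in rumen than in forebrain (all tested genes: 20.3% and 21.5%). The 1 higher was CSPG4, and the median log2 fold change was -1.53. In liver 0 were higher and 7 lower (all tested genes: 30.5% and 27.3%), with a median of -5.47. The number higher in rumen was 0 when any Forebrain or Rumen library was left out. It was 2 when a Liver library was, and the number lower was then 5. No gene was higher with the older quasi-likelihood method.

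Among myelin genes, MOBP had 8 and 10 counts in the forebrain libraries, ERMN 2 and 6, and OPALIN had none in any library. MOG, a late myelin protein, did not pass the test in any comparison and had a level of 5.23 ± 0.154 CPM in forebrain, of 7.94 ± 2.78 in liver and of 4.71 ± 0.262 in rumen (SD, n = 2). CNP and TMEM98 were not called either. MAL, a membrane protein of myelin and of epithelia, was 6.67-fold higher in rumen than in forebrain (adjusted p = 0.00451). In sum, of 10 tested myelin genes, MBP and BCAS1 included, 1 was higher and 2 lower in rumen, with a median log2 fold change of -0.29. The 2 lower were MBP and BCAS1, and 0 of the other 8 were lower. In liver 0 were higher and 4 lower, with a median of -1.77. Of all tested genes 20.3% were higher and 21.5% lower in rumen, and 30.5% higher and 27.3% lower in liver, so the myelin counts in rumen did not exceed those shares. In rumen the number higher was 2 and the number lower 5 without either Liver library, and 1 was lower without either Rumen library. In liver the number lower was 2 without Forebrain 1, 1 without Forebrain 2 and 7 without Liver 2, the last with 1 higher, and it was 7 with total counts and no scaling factor.

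Genes of the other cells known to carry NES, CSPG4 or FABP7 were read in rumen. The smooth muscle list summed to 10026 and 10661 CPM in rumen against 63.7 and 91.4 CPM in forebrain and 502 and 336 CPM in liver, and all 11 of its tested genes were higher in rumen than in forebrain, where 20.3% of all tested genes were higher and 21.5% lower. Among them, MYH11, the smooth muscle myosin, was 1936-fold higher and ACTA2, the smooth muscle actin, 68.1-fold higher. Of the 7 tested pericyte genes, CSPG4 included, 3 were higher and 0 lower in rumen than in forebrain, beside those same shares of all tested genes. The others called higher were MCAM (an adhesion molecule of vessels, 5.01-fold) and KCNJ8 (a potassium channel of pericytes, 2.83-fold). The number higher was 1 without Forebrain 1, Rumen 1 or Rumen 2, and the number lower 2 without either Liver library. For PDGFRB, rumen had 7.38 ± 0.594 and forebrain 5.16 ± 1.68 CPM (SD, n = 2; adjusted p = 0.413). RGS5 and NDUFA4L2, also in this list, lay lower in every rumen library than in forebrain. Their means were 4.30 against 16.1 CPM and 11.6 against 18.7 CPM, and neither was called (adjusted p = 0.104 and 0.302). ANPEP overlapped between rumen and forebrain (adjusted p = 0.885). Endothelial genes summed to 414 and 369 CPM in the rumen libraries, 244 and 336 CPM in forebrain and 644 and 443 CPM in liver, with 4 of 11 higher in rumen than in forebrain, beside the same 20.3% of all tested genes, a number that fell to 0 when either Forebrain library or Rumen 1 was left out, and to 1 for Rumen 2.

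Peripheral glia were read through 8 genes of Schwann cells and enteric glia. In rumen only PMP2 of these had no counts, and the sums of 317 and 277 CPM compared with 435 and 696 CPM in forebrain, where S100B made up most of the sum. Of the 6 tested, ERBB3 (the neuregulin receptor, 127-fold), PMP22 (a myelin protein of nerves, 5.46-fold) and NGFR (a neurotrophin receptor, 3.17-fold) were higher in rumen than in forebrain, and S100B was lower, beside 20.3% and 21.5% of all tested genes. ERBB3 is also an epithelial gene, and its level in liver, 94.2 and 172 CPM, overlapped that in rumen. NGFR, also in the stellate cell list, was 2.62-fold lower in rumen than in liver (adjusted p = 0.0078). SOX10 and GFRA3 were tested and not called between rumen and forebrain (adjusted p = 0.319 and 0.232). CDH19 had 24 and 6 counts in rumen and 0 in each forebrain library, and was not tested. The part of muscle, vessels and peripheral glia in the rumen levels of NES, CSPG4 and FABP7 was not tested.

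The genes with the most similar profiles were found by Euclidean distance between profiles of log2(CPM + 0.5) over the 6 libraries, each centred on its own mean. For FABP7 these were PCSK1N, TUBB2B and LUZP2, at distances of 0.41, 0.52 and 0.66, where the median distance to a tested gene was 8.18. NES was nearest to ARHGEF40 (0.30), HTRA1 (0.42) and TMEM107 (0.42), with a median of 3.17 over tested genes. TMEM107 was read at very low depth, with 0 counts in Liver 2 and at most 28, in Rumen 2. Its mean was 0.0744 CPM for the liver libraries and 1.86 CPM for those of rumen. The added 0.5 CPM shrinks differences at such levels, so its short distance does not show fold changes like those of NES. For OLIG1 the nearest were CCK (0.48), SLC1A6 (0.77) and LOC100848574 (0.93), and for CSPG4 they were GLIPR2 (0.38), ZNF703 (0.51) and PDE1A (0.72). MBP and BCAS1 had no such close profiles. The nearest to MBP were RUFY3 (1.56), PLXNC1 (1.61) and PLD5 (1.71), all 3 higher in Liver 1 than in Liver 2. The distance includes both liver libraries, so the choice itself favours that direction, which says nothing further about the gap inside liver. The nearest to BCAS1 were SHD (1.03), PPP1R1A (1.12) and ATP6V0D2 (1.18). Among the 6 genes themselves, NES and CSPG4 were nearest to each other, at 1.71, followed by MBP and BCAS1 at 3.36, and OLIG1 and CSPG4 were farthest apart at 10.8. These distances describe 6 libraries of 3 tissues, and genes are not independent replicates.

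Neighbouring genes, placed by the order of protein-coding genes in RefSeq's ARS-UCD2.0 annotation, did not always share a member's pattern. NES lies between CRABP2, a carrier of retinoic acid, and BCAN. CRABP2 stood at 5.94 and 11.8 CPM in forebrain, 16.6 and 24.1 CPM in liver and 64.1 and 59.1 CPM in rumen, whereas BCAN stood at 295 and 318 CPM in forebrain, 0 in both liver libraries, and 0 and 1.01 CPM in rumen. So the genes on either side of NES were highest in different tissues. PKIB and SMPDL3A, which flank FABP7, were not called between rumen and forebrain (adjusted p = 0.0971 and 0.962). In that annotation FABP7 overlaps 1 long non-coding RNA, BCAS1 1 and MBP 3, and since the strand setting of the counting is not given in the sources used here, reads of such overlaps cannot be told apart.

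**Figure D5:**
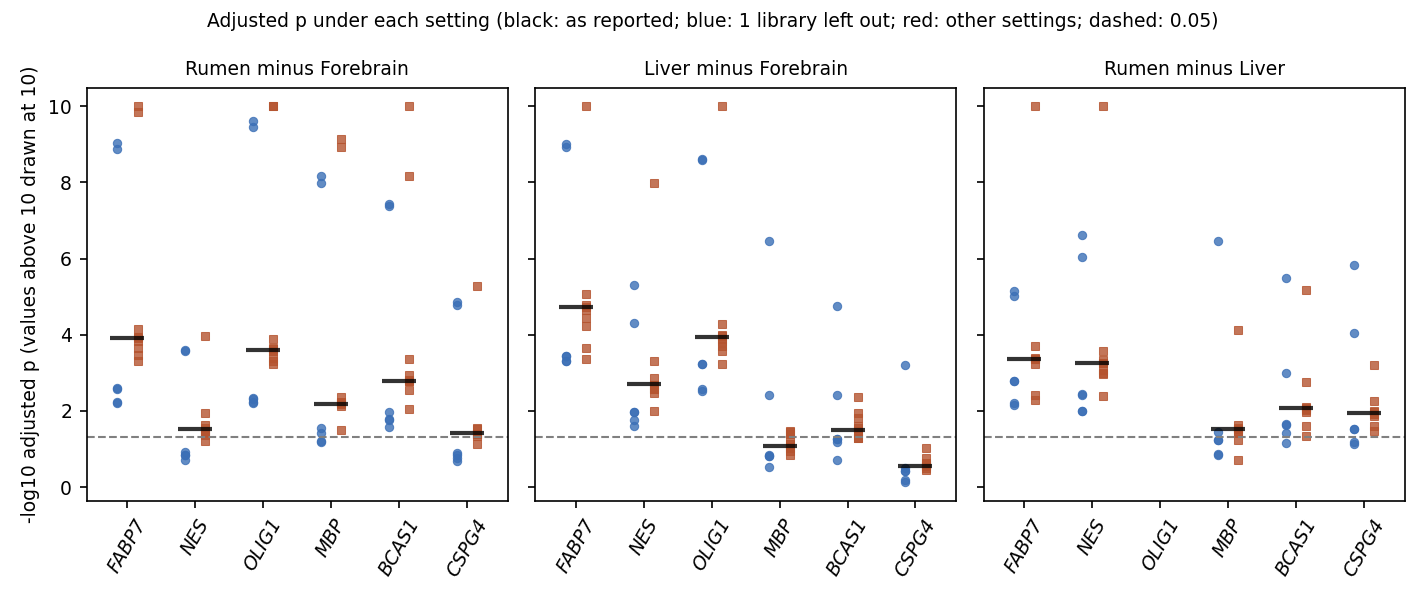
Negative log10 of the adjusted p (y axis, values above 10 drawn at 10) for each gene (x axis) in the 3 comparisons; black bars are the values reported, blue circles leave out 1 library, red squares are the other settings, and the dashed line is 0.05. FABP7 stays above the line throughout, while NES and CSPG4 in rumen minus forebrain and BCAS1 in liver minus forebrain have settings on both sides.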

How the data were processed

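The authors deposited raw counts per gene symbol, whole numbers in 1 column per library. HISAT2 2.0.5, featureCounts 1.5.0-p3 and edgeR 3.18.1 are named per the submitters' processing notes. For build, annotation and strand nothing is given in the sources used here, and no coordinates are printed. All 6 columns matched a label by name.

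The tests used R 4.3.3 and edgeR 4.0.16: filterByExpr by tissue (minimum count 10), TMM factors, estimateDisp, and glmQLFit in its current form (legacy off) on a model of tissue alone, which left 3 residual degrees of freedom. Fold changes use edgeR's prior count. Alternatives used DESeq2 1.42.0 and limma 3.58.1 (voom), other scalings and filters, 2 tissues alone, a replicate block, and each library left out; edgeR's older quasi-likelihood method was added after seeing the data. Scripts were tested on simulated data. The 6 genes and the 18 gene lists were chosen with earlier results of these data known. Besides the 6, text names came from these lists: the 4 tested genes of highest mean CPM, whole families, and the 3 nearest profiles. Further listed genes, lineage genes and neighbours were named after their values were seen. Of the listed genes, 29 were not analysed here. A further 2 genes of the lists are not reported here and are left out of their counts.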

Additional observations from a re-analysis of the deposited data

How the results depend on the processing

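FABP7 and OLIG1 kept every call and direction in all alternatives, and no fold change of the 6 genes reversed. With total counts and no scaling factor, NES in rumen against forebrain had a log2 fold change of 0.65 and was no longer called, leaving 1 of the 6 genes higher there, and MBP in liver against forebrain was called at -2.39. That scaling moved the median of all genes by -0.15 in rumen against forebrain, -0.47 in liver against forebrain and 0.29 in rumen against liver. MBP in liver against forebrain was also called by DESeq2 at -1.97 and by limma-voom at -2.66. In rumen against liver, MBP was not called by limma-voom at -3.06 or with only those tissues in the fit at -3.87, which left 1 of the 6 genes lower under each. The older quasi-likelihood method lost CSPG4 in rumen against forebrain at 1.95, leaving 1 of the 6 higher, and BCAS1 in liver against forebrain at -1.70. With only forebrain and liver in the fit BCAS1 was lost at -1.77 as well, and with only rumen and forebrain 3681 genes were higher and 3734 lower, against 2329 and 2473 with all tissues. The cause was not tested for any of these.

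With 1 library left out, genes numbered 1001 to 3621 higher and 1119 to 3843 lower in rumen against forebrain, 1954 to 4398 and 2036 to 3993 in liver against forebrain, and 1333 to 3481 and 1105 to 3792 in rumen against liver. Of the 6 genes, 0 to 2 were then higher and 3 to 4 lower in rumen against forebrain, 3 to 6 lower in liver against forebrain, and 2 to 3 higher and 0 to 2 lower in rumen against liver. The log2 fold changes ranged as follows. In rumen against forebrain NES lay from 0.74 to 0.94, MBP from -6.06 to -5.36 and CSPG4 from 1.70 to 2.31. In liver against forebrain MBP lay from -4.20 to -1.03, BCAS1 from -2.65 to -1.15 and CSPG4 from -2.50 to -0.14. In rumen against liver MBP lay from -4.75 to -1.58, BCAS1 from -4.21 to -2.46 and CSPG4 from 2.08 to 4.43. A tissue left with 1 library is assumed to vary like the others. Over the gene lists, 1453 of 1620 counts stayed within 1.5 times the reported one.

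With the library number as a replicate block, no call of the 6 genes changed (NES in rumen against forebrain, 0.82, adjusted p = 0.0422), and 2225 genes were higher and 2338 lower in rumen against forebrain, 3385 and 3030 in liver against forebrain, and 2261 and 2356 in rumen against liver. Deviations of number 1 correlated at 0.08 between forebrain and liver, -0.08 between forebrain and rumen, and 0.01 between liver and rumen. These values cannot tell whether a number marks the same fetus across tissues, because effects of a fetus need not be shared between tissues. Depth limits the low values: MBP had 20 and 17 counts in rumen and BCAS1 15 and 38.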
